A study of Mus musculus with 25 samples.

Results

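Melanomas that kept their size under an antibody against CTLA-4 were compared with melanomas that went on growing under the same antibody. The comparison used 12 of the 25 tumours sequenced, taken by the outcome written in their labels: 6 stable tumours and 6 non-responders. All were grown from B2905, a mouse melanoma line also called M4, in C57BL/6 mice, and all 12 received anti-CTLA-4 at 10 mg/kg, begun when tumours averaged 75 mm3. The outcome was read in the 10 to 11 days after the last dose. The 5 controls shown beside them carried the same line and received isotype IgG2b antibody at 10 mg/kg. A further 8 responders were not compared, but entered the choice of genes tested, the scaling of the libraries and the estimate of the spread between tumours. Each library came from a different tumour, but every tumour descends from 1 cell line. The ages and sexes of the mice, and the time of harvest relative to the outcome, could not be taken from the sources used here. The numbers given to libraries follow the groups (6 to 11 in non-responders and 20 to 25 in stable tumours). Any influence of the order of processing is thereby confounded with outcome and cannot be told apart from it.

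CTLA-4 is a receptor on T cells that competes with CD28 for CD80 and CD86 on antigen-presenting cells and so restrains T cell activation, and regulatory T cells carry much of it. Melanocytes and many melanomas make pigment in melanosomes with enzymes such as Tyr, Tyrp1 and Dct, whose genes are switched on by the transcription factors Mitf and Sox10. Interferon gamma from activated T and NK cells induces antigen presentation genes, GTPases and the checkpoint ligand Cd274 (PD-L1) in many cell types, while dividing cells express histone, replication and mitotic genes in step with the cell cycle. The RNA was taken from whole tumours, so fewer cells of a type and less RNA per cell cannot be told apart in any value below.

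The libraries held 10.9 to 25.4 M counts in non-responders and 14.8 to 22.8 M counts in stable tumours. Protein-coding genes took 86.2 ± 1.86% of counts in stable tumours and 86.1 ± 1.97% in non-responders (SD, n = 6 each; two-sided exact permutation p = 0.918). The mitochondrial ribosomal RNA share did differ. It ran from 1.31% to 7.28% in stable tumours (median 2.13) and from 0.783% to 1.06% in non-responders (median 0.942), with no overlap (exact permutation p = 0.00216, the smallest that the 924 splits allow, adjusted p = 0.0195 over 9 measures of composition). Outcome group accounted for 58.4% of the variance of this share on the log2 scale among the 12 tumours, and what it contributes to the results below was not tested apart from the fit with it as a covariate.

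Of 18031 genes tested, 2693 were called at an adjusted p under 0.05, or 14.9%. In stable tumours 1276 were higher (7.08% of the genes tested) and 1417 lower (7.86%). Levels are in CPM, counts per M counts of the library scaled by the trimmed mean of M values (TMM), and differences are log2 fold changes of stable tumours minus non-responders. Every stable tumour lay above every non-responder for 374 genes (2.07%) and below for 530 genes (2.94%). In edgeR's test against a 2-fold change, 24 genes were lower in stable tumours (0.133%) and 0 were higher (0%), where 263 were higher at an unadjusted p under 0.05. Those 24 included 7 genes of the pigment list (Tyr, Dct, Slc45a2, Pmel, Oca2, Rab38 and Tspan10), the mitochondrial coactivator Ppargc1a and the prostaglandin synthase Ptgds. Leaving out 1 tumour at a time gave 1470 to 3804 calls, with 1470 without non-responder 2, 1517 without non-responder 3, 1523 without stable 3 and 3804 without non-responder 6, and 1263 genes were called in all 12 of those fits. With the mitochondrial rRNA share as a covariate in a fit of the 12 tumours, 1 gene was called, Fmo2, a flavin monooxygenase higher in stable tumours (log2 fold change 1.90, SE 0.29, adjusted p = 0.000913 in the fit of all tumours without the covariate). In that fit 2553 of the 2557 called genes present kept their sign. Against the fit of the same 12 tumours without it, their log2 fold changes were larger by a median factor of 1.30 and their standard errors by 1.54. At an unadjusted p under 0.05, 2246 genes were higher and 1996 lower in the fit with the covariate. Of the genes named below, mt-Rnr1 changed sign with the covariate (log2 fold change -0.70). Its own counts are part of that covariate, so this value says nothing about its difference between the groups.

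**Figure D1:**
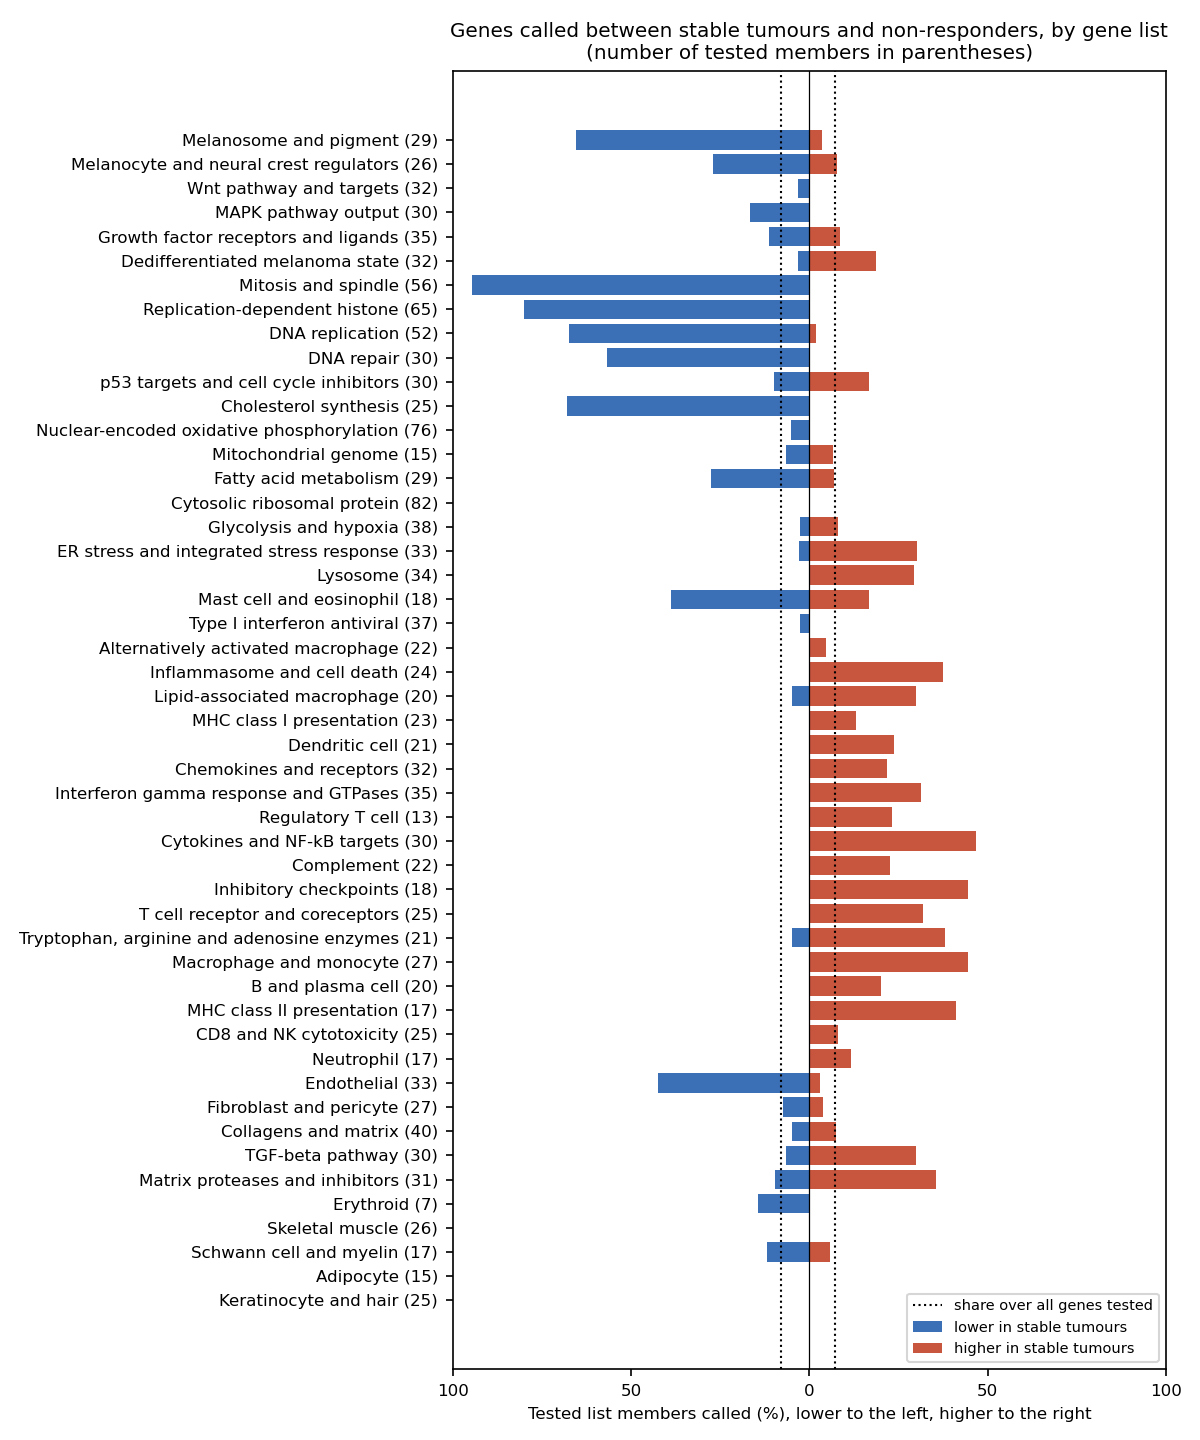
Share of the tested members of 49 gene lists called lower (bars to the left) or higher (bars to the right) in stable tumours than in non-responders, in percent. Dotted lines mark the share over all 18031 genes tested, 7.86% lower and 7.08% higher. The longest bars to the left belong to mitosis (53 of 56), histones (52 of 65), cholesterol synthesis (17 of 25), DNA replication (35 of 52) and pigment genes (19 of 29), and the longest to the right to cytokines and NF-kB targets (14 of 30), inhibitory checkpoints (8 of 18), macrophage and monocyte genes (12 of 27) and MHC class II (7 of 17).

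Genes were described by lists of their known roles. In 34 combinations of list and direction edgeR called 0 members. At an unadjusted p under 0.05 26 of these still had 0 and the highest had 4, DESeq2 called 0 in 31 and at most 3, and limma on log2(RPKM + 1) called 0 in 29 and at most 4. Members of gene families with similar sequences, such as the Gbp, H2, Gsta, Lilrb4 and haemoglobin genes and immunoglobulin segments, can share reads and are uncertain for that reason.

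Of the 8 called genes with the lowest fold changes and a mean of at least 5 CPM, 4 belong to the pigment list (Slc45a2, Dct, Pmel and Tspan10). Slc45a2 encodes a melanosomal transporter and lies on chromosome 15, 11000721 to 11029233, plus strand. It stood at 0.111 to 2.15 CPM in stable tumours (median 0.938) and 3.16 to 282 CPM in non-responders (median 92.7), against 180.1 to 435 CPM in controls (median 402). The groups did not overlap (log2 fold change -6.70, SE 1.11, adjusted p = 0.00172). Dct, dopachrome tautomerase of the melanin pathway (chromosome 14, 118012790 to 118052244, minus strand), ranged over 2.84 to 38.7 CPM in stable tumours (median 14.8) and 62.5 to 6513 CPM in non-responders (median 885), against 4529 to 7872 CPM in controls (median 5867). No stable tumour reached the lowest non-responder, and non-responder 3, at the top, was the only one within the range of the controls (log2 fold change -6.59, SE 1.29, adjusted p = 0.00357). Pmel, whose product forms the fibrils of the melanosome (chromosome 10, 128704195 to 128720238, plus strand), ranged over 1.95 to 23.3 CPM in stable tumours (median 12.3) and 47.5 to 2528 CPM in non-responders (median 338), again with no overlap. For Pmel this gave a difference of -5.96 on the log2 scale (SE 1.07, adjusted p = 0.00249). The others of the 8 lowest were Tspan10 (-5.86), which helps melanosomes mature, the cilia-associated gene Cfap54 (-6.89), the carbonic anhydrase Car14 (-6.00), the glutathione transferase Gsta1 (-5.84) and Rnu1a1 (-6.16). Rnu1a1 is a copy of the multi-copy U1 small nuclear RNA, so its counts are uncertain. DESeq2 gave it no p, and its log2 fold change was -12.01 without stable 3, the highest stable tumour. Car14 was not called by limma on log2(RPKM + 1) or log2(RPKM + 0.1).

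At the other end, Col6a5, a collagen VI chain, ranged over 4.74 to 34.3 CPM in stable tumours (median 12.2) and 0.645 to 6.15 CPM in non-responders (median 2.15). It overlapped only through non-responder 6, the highest of its group (log2 fold change 2.79, SE 0.57, adjusted p = 0.00405). Inpp5j, an inositol phosphatase, was higher in every stable tumour than in any non-responder, at 6.9 to 15.4 CPM in stable tumours (median 7.88) and 0.172 to 3.78 CPM in non-responders (median 1.29). For Inpp5j this gave a difference of 2.40 on the log2 scale (SE 0.50, adjusted p = 0.00411). Mmp13, a collagenase, ranged over 11.6 to 78.8 CPM in stable tumours (median 43.3) and 2.64 to 15.7 CPM in non-responders (median 6.82) (log2 fold change 2.52, SE 0.61, adjusted p = 0.00897), and Tmeff1, a transmembrane protein with follistatin domains, over 6.59 to 31.1 CPM in stable tumours (median 16.3) and 1.63 to 8.26 CPM in non-responders (median 3.09) (log2 fold change 2.31, SE 0.45, adjusted p = 0.00355). Non-responder 6 was the highest non-responder for Mmp13 and Tmeff1 too, and the only one above the lowest stable tumour. Atp6v0d2, a subunit of the vacuolar proton pump (2.52), Nos2, inducible nitric oxide synthase (2.43), and Alox15, a lipoxygenase (2.41), were also among the 8 highest. Without non-responder 6 the log2 fold change of Nos2 was 3.69, and it was not called in a fit of the 12 tumours alone. The last of the 8, mt-Rnr1, is the small mitochondrial rRNA itself (2.31). It lost its call without stable 5 (log2 fold change 1.10) and without any of the 6 non-responders.

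Of 29 genes for melanosomes and pigment, 19 were lower and 1 higher in stable tumours, with a median log2 fold change of -1.98 against -0.02 over all genes tested. In 11 of the 29 every stable tumour lay below every non-responder, against 2.94% of all genes tested. Leaving out any tumour left 16 to 20 lower. Tyrp1, which stabilises tyrosinase and oxidises a melanin precursor, ranged over 3.79 to 133 CPM in stable tumours (median 92.5) and 240.3 to 3253 CPM in non-responders (median 518). For Tyrp1 this gave a difference of -3.70 on the log2 scale (SE 0.72, adjusted p = 0.00349). Tyr, tyrosinase, the rate-limiting enzyme, ranged over 0.39 to 10.1 CPM in stable tumours (median 4.68) and 11.4 to 612 CPM in non-responders (median 164), with 723 to 1108 CPM in controls (median 843). For Tyr this gave a difference of -5.69 on the log2 scale (SE 1.09, adjusted p = 0.00335). Neither gene overlapped between the groups, and stable 3 was the lowest tumour for each. Mlana, a melanosomal membrane protein, overlapped between the highest stable tumour and the lowest non-responder, at 1.45 to 7.31 CPM in stable tumours (median 2.71) and 6.73 to 154 CPM in non-responders (median 36.6). For Mlana this gave a difference of -4.0 on the log2 scale (SE 0.78, adjusted p = 0.00368). Rab38, a GTPase that carries enzymes to the melanosome, did not overlap (log2 fold change -3.68, SE 0.60, adjusted p = 0.00151), nor did Oca2, an anion transporter of the melanosome (log2 fold change -4.35, SE 0.78, adjusted p = 0.00249). The exception was Slc7a11, the cystine transporter that takes part in red pigment and in defence against oxidation, which was higher (log2 fold change 2.2, SE 0.62, adjusted p = 0.0217). The call depended on non-responders 1, 2 and 3, each of whose removal ended it, and was absent in a fit of the 12 tumours alone, and its log2 fold change was 3.52 without non-responder 6. The 6 melanocyte markers summed to 131 to 415 CPM in stable tumours, 618 to 13396 CPM in non-responders and 10124 to 16554 CPM in controls, so these markers of the labelled cell type were present but low in the stable tumours. None of the 6 was at 0 in all tumours of a group. Sox10, the lineage factor among them, remained at 121 to 252 CPM in stable tumours (median 176) and 242 to 337 CPM in non-responders (median 296).

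**Figure D2:**
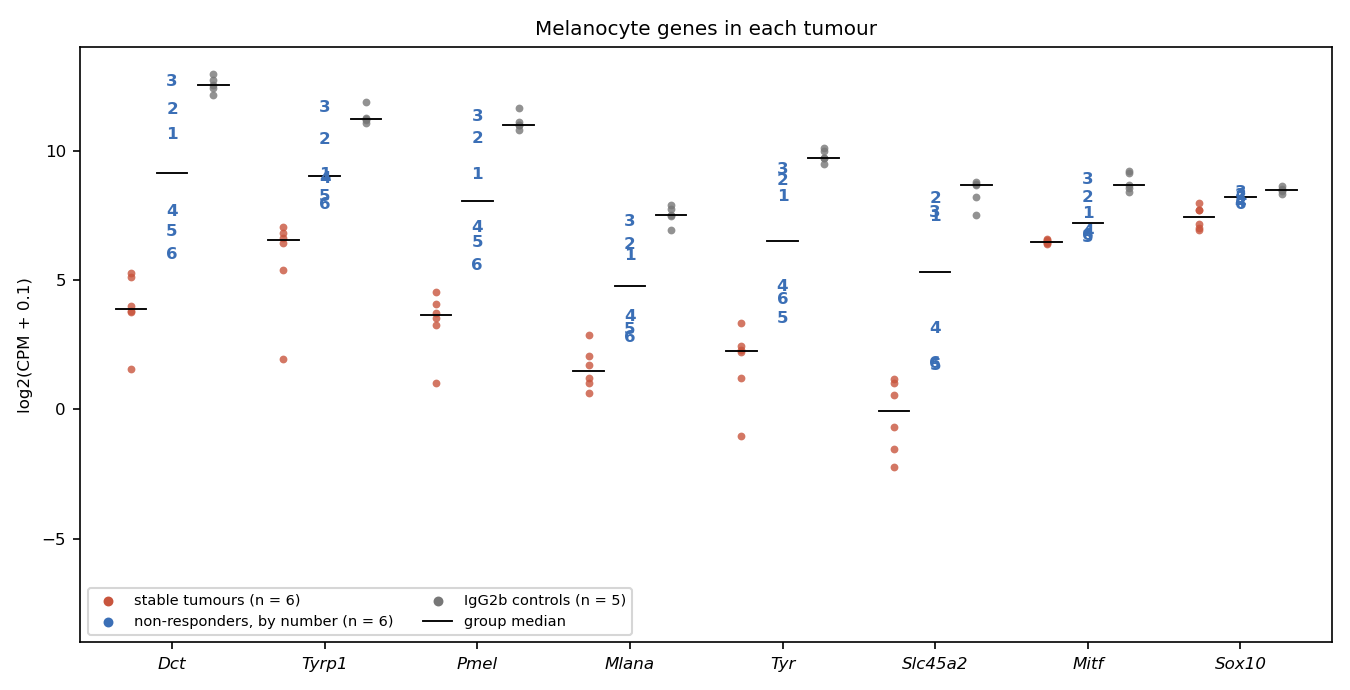
Level of 8 melanocyte genes in each tumour on a log2(CPM + 0.1) axis, with stable tumours as dots, non-responders as their numbers, IgG2b controls as grey dots and the group median as a bar. Non-responders 1, 2 and 3 lie above non-responders 4, 5 and 6 for Dct, Pmel, Mlana and Tyr, and every stable tumour lies below every non-responder for each gene except Mlana and Sox10, which overlap.

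Promoter sequences show what several of these genes share. RefSeq promoters (build GRCm38.p6) were matched for 23 of the 29 pigment genes, and the 250 bases before the start were searched on both strands for CATGTG, the core of the M-box that Mitf binds. It was present in 11 of 23 (47.8%), in 9 of the 14 matched genes called lower, in 9.90% of 12015 matched tested genes and in 13.9% of all 27025 genes with a promoter. A match is a string of letters and does not show binding. The 4 called genes with the lowest adjusted p and a match in the last 120 bases before the start are shown, with the match in capitals as CATGTG or its reverse complement CACATG. They lie at chr11:120442511-120442630, plus strand for Tspan10, chr2:125068007-125068126, plus strand for Slc24a5 (a melanosomal ion exchanger), chr7:87493513-87493632, minus strand for Tyr and chr4:80834093-80834212, plus strand for Tyrp1.
Tspan10: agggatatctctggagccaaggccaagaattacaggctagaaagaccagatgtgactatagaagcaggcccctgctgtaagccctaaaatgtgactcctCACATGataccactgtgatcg
Slc24a5: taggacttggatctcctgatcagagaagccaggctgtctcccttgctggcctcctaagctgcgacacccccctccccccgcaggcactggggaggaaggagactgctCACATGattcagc
Tyr: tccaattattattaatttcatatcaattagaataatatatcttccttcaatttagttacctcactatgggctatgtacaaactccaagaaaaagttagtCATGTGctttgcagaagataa
Tyrp1: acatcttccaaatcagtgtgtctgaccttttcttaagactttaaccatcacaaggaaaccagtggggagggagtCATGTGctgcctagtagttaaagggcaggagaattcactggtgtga
Counted back from the start, the match begins at -13 in Slc24a5, at -21 in Tspan10 and Tyr and at -46 in Tyrp1.

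Regulators of the lineage had a median closer to that of all genes. Of 26 regulators of melanocytes and neural crest, 7 were lower and 2 higher (median -0.38). Mitf, the central factor (chromosome 6, 97807052 to 98021349, plus strand), ranged over 84.2 to 96.3 CPM in stable tumours (median 88.8) and 99.2 to 471 CPM in non-responders (median 153) and 337 to 591 CPM in controls (median 402). The stable tumours were tightly grouped below every non-responder (log2 fold change -1.24, SE 0.28, adjusted p = 0.00669). Pax3, which acts with Sox10 on Mitf, fell too (log2 fold change -1.34, SE 0.29, adjusted p = 0.00486), as did Sox10 (log2 fold change -0.71, SE 0.18, adjusted p = 0.011) and S100b, a calcium-binding protein of neural crest cells (log2 fold change -1.15, SE 0.26, adjusted p = 0.00667). Tfe3, a relative of Mitf that governs lysosome genes, was higher in all 6 stable tumours than in any non-responder, at 43.1 to 51.3 CPM in stable tumours (median 48.7) and 31.3 to 39.8 CPM in non-responders (median 37.5) (log2 fold change 0.41, SE 0.07, adjusted p = 0.00216), and its relative Tfec, abundant in macrophages, was also called higher. Of 32 genes of the dedifferentiated melanoma state, 6 were higher and 1 lower (median 0.27). The higher ones included Inhba, the activin A subunit (log2 fold change 2.22, SE 0.44, adjusted p = 0.00368), Tgfbi, a matrix protein induced by TGF-beta (log2 fold change 1.23, SE 0.31, adjusted p = 0.0102), and Junb of the AP-1 complex (log2 fold change 0.94, SE 0.24, adjusted p = 0.0117), while Tead2, a partner of Yap, was lower (-0.66).

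Among growth signals, 5 of 30 genes of MAPK output were lower and 0 higher (median -0.19), and 3 were lower without non-responder 3. Myc, the growth regulator, ranged over 12.8 to 31.0 CPM in stable tumours (median 24.2) and 32.9 to 80.7 CPM in non-responders (median 50.7), without overlap. For Myc this gave a difference of -1.21 on the log2 scale (SE 0.25, adjusted p = 0.00405). Etv1, an ETS transcription factor, was lower too, with 3 of the 6 stable tumours below every non-responder (log2 fold change -1.16, SE 0.31, adjusted p = 0.015). Phlda1 (-1.57) and Dusp4 (-0.90) were lower but not called by limma on log2 RPKM, and Dusp4 lost its call without non-responder 3 (log2 fold change -0.57). Of 35 growth factor genes, 4 were lower and 3 higher (median 0.14), with 7 lower without non-responder 6. The 4 and 3 were 11.4% and 8.57%, against 7.86% and 7.08% over all genes tested. Met, the receptor of hepatocyte growth factor, ranged over 75.0 to 123 CPM in stable tumours (median 92.0) and 89.0 to 1045 CPM in non-responders (median 242) and 816 to 1174 CPM in controls (median 1081). It was called lower (log2 fold change -2.01, SE 0.48, adjusted p = 0.00827) but overlapped at the bottom of the non-responders and was not called by limma on log2 RPKM. Its ligand Hgf was called higher (0.90), but not without non-responder 2 or 3 or stable 3 or 4, by limma on log2 RPKM or in a fit of the 12 tumours alone. Of 32 Wnt genes, 1 was lower (Lgr5, -1.90) and its call was lost without any 1 of the tumours except non-responder 6. That is 3.125% of the list, below the 7.86% over all genes tested. The list held 0 to 3 lower genes over the left-out fits, with 3 without non-responder 6, 2 without stable 5 and 0 without non-responder 1, 2, 4 or 5 or stable 1, 3 or 4. Of 30 TGF-beta genes, 9 were higher and 2 lower (median 0.39), with 5 higher without non-responder 2 or 3, and 0 lower without non-responder 3 and 1 without non-responder 1 or stable 3. Beside Inhba and Tgfbi, Ltbp2, which binds the matrix (log2 fold change 1.37, SE 0.33, adjusted p = 0.00821), and Skil, an inhibitor of Smad signalling (log2 fold change 0.61, SE 0.16, adjusted p = 0.0121), were higher.

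Of the 49 lists, mitosis had the largest share of members called. Of 56 genes of mitosis and the spindle, 53 were lower in stable tumours and 0 higher, against 7.86% lower over all genes, with a median log2 fold change of -1.01. Every one of the 56 had a negative value, and leaving out any tumour left 51 to 53 lower. Cdc20, activator of the anaphase-promoting complex (chromosome 4, 118432901 to 118437352, minus strand), ranged over 6.58 to 16.8 CPM in stable tumours (median 13.9) and 20.1 to 54.9 CPM in non-responders (median 31.3), with 38.5 to 57.8 CPM in controls (median 55.0). Stable tumours lay below every non-responder, with stable 3 the lowest and non-responder 3 the highest (log2 fold change -1.40, SE 0.24, adjusted p = 0.00185). Ncaph of the condensin complex (log2 fold change -0.98, SE 0.17, adjusted p = 0.00216), the chromosome motor Kif4 (log2 fold change -1.09, SE 0.19, adjusted p = 0.00236) and the kinetochore subunit Spc25 (log2 fold change -1.06, SE 0.20, adjusted p = 0.0028) did not overlap either. In all, 21 of the 56 genes did not overlap, against 2.94% of all genes tested with stable tumours below.

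Replication and repair followed. Of 52 genes of DNA replication, 35 were lower and 1 higher (median -0.63), with 22 lower without non-responder 3. Mcm7, a subunit of the replicative helicase (chromosome 5, 138164583 to 138172422, minus strand), ranged over 24.1 to 37.6 CPM in stable tumours (median 34.5) and 44.8 to 106 CPM in non-responders (median 65.3). For Mcm7 this gave a difference of -1.11 on the log2 scale (SE 0.17, adjusted p = 0.000913). Mcm5 (log2 fold change -1.33, SE 0.22, adjusted p = 0.0016) and Mcm2 (log2 fold change -1.14, SE 0.21, adjusted p = 0.00249) of the same helicase and Gins1, which joins it to the fork (log2 fold change -1.14, SE 0.21, adjusted p = 0.00249), were lower as well, and Mcm2 alone of these 4 overlapped between the groups. The exception was E2f2, a transcription factor of the cell cycle (0.55), whose call was lost without non-responder 2, 3 or 4 or stable 2 or 3. Of 30 repair genes, 17 were lower and 0 higher (median -0.57), among them the Fanconi anaemia genes Fanci (log2 fold change -1.38, SE 0.23, adjusted p = 0.00151) and Fancd2 (log2 fold change -1.08, SE 0.21, adjusted p = 0.00312) and the exonuclease Exo1 (log2 fold change -1.23, SE 0.25, adjusted p = 0.00368). Leaving out any tumour left 13 to 19 repair genes lower.

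Replication-dependent histone genes make the histones of S phase. Of 65 tested, 52 were lower and 0 higher (median -1.0), and in 47 the stable tumours lay below every non-responder, against 2.94% of all genes tested. The list also holds H1f0, whose expression is not tied to replication. Histone copies are nearly identical, so reads can be shared among them and single members are uncertain. Hist1h3h (chromosome 13, 21717659 to 21718069, plus strand) ranged over 12.2 to 22.1 CPM in stable tumours (median 16.6) and 28.0 to 55.2 CPM in non-responders (median 42.2) (log2 fold change -1.34, SE 0.20, adjusted p = 0.000913), and Hist1h4i over 5.69 to 8.77 CPM in stable tumours (median 7.79) and 14.8 to 29.9 CPM in non-responders (median 18.7) (log2 fold change -1.43, SE 0.21, adjusted p = 0.000913). Leaving out any tumour left 41 to 52 lower. Of 30 p53 targets and inhibitors of the cycle, 5 were higher and 3 lower (median 0.21). These were 16.7% and 10% of the list, against 7.08% and 7.86% over all genes tested. Btg2, an antiproliferative p53 target, was higher without overlap (log2 fold change 0.95, SE 0.22, adjusted p = 0.00684), while Plk2, a polo-like kinase induced by p53 (log2 fold change -0.92, SE 0.18, adjusted p = 0.00317), and Cdkn2c, an inhibitor of Cdk4 and Cdk6 (log2 fold change -1.03, SE 0.21, adjusted p = 0.00368), were lower without overlap. The count of 5 fell to 1 without non-responder 2 or 3 or stable 2, 3 or 4, to 2 without non-responder 1 or 5, and reached 8 without non-responder 6 or stable 1.

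**Figure D3:**
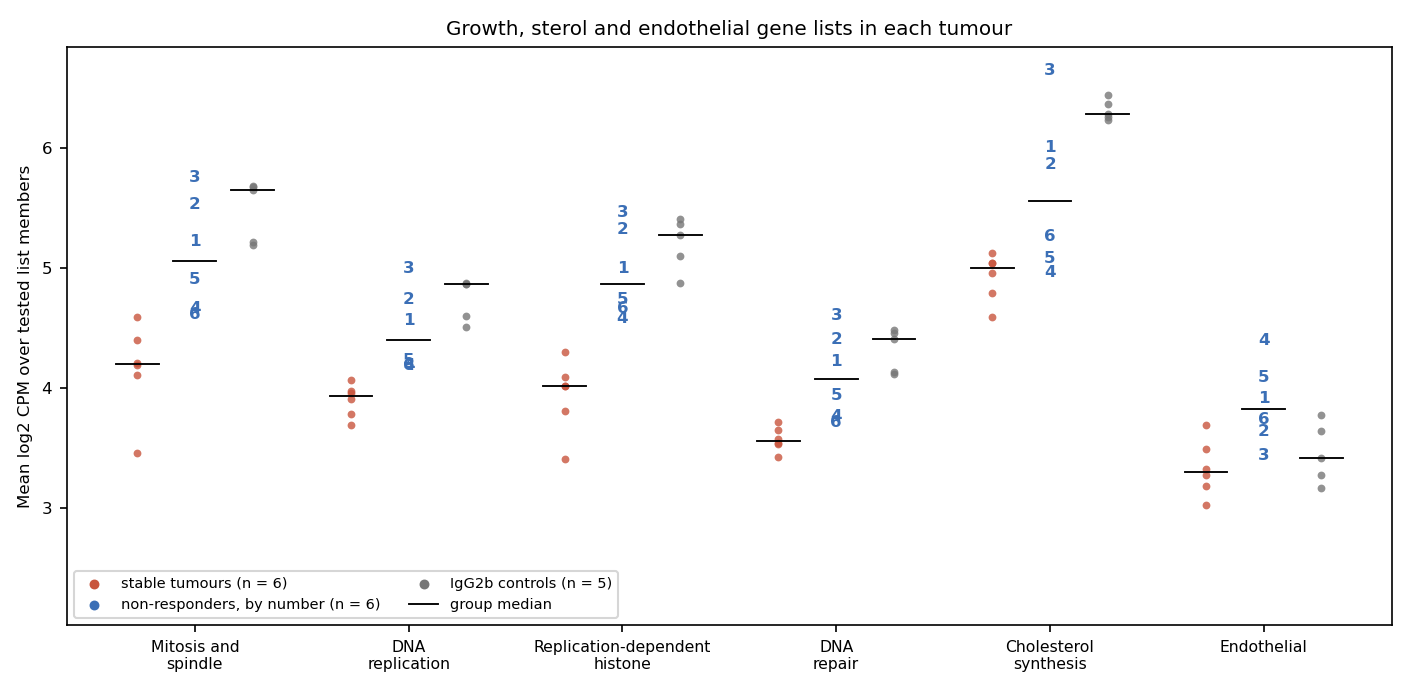
Mean log2 CPM over the tested members of 6 gene lists in each tumour, with stable tumours as dots, non-responders as their numbers, IgG2b controls as grey dots and the group median as a bar. For mitosis, replication, histones and repair all stable tumours lie below all non-responders, by a narrow margin for repair (both 3.71 at the edge) and mitosis (highest stable 4.59, lowest non-responder 4.61), while cholesterol synthesis and endothelial genes overlap.

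The promoters of mitotic genes were searched for TTTGAA, the cell cycle homology region bound by repressor complexes in resting cells. It was found in the 250 bases before the start in 18 of the 47 mitosis genes matched (38.3%) and in 13.6% of matched tested genes, and CCAAT in 34 of the 47 (72.3%) and in 39.9%. TTTGAA was also in 6 of 21 matched interferon gamma genes (28.6%), 5 of 18 macrophage genes (27.8%) and 7 of 41 replication genes (17.1%). Shown are the 3 called mitosis genes with the lowest adjusted p and TTTGAA or its reverse complement TTCAAA within 120 bases of the start, in capitals. They are Cdc20 at chr4:118437344-118437463, minus strand, the spindle motor Kif11 at chr19:37376262-37376381, plus strand and the depolymerase Kif2c at chr4:117178773-117178892, minus strand, all on GRCm38.p6.
Cdc20: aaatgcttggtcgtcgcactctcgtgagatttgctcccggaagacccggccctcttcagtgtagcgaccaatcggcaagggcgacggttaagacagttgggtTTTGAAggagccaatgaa
Kif11: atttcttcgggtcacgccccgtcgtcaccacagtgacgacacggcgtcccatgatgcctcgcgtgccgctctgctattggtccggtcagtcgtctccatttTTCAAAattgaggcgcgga
Kif2c: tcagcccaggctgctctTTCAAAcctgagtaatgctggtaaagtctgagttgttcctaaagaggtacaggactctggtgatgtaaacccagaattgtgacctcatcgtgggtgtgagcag
The match begins at -18 in Cdc20, at -19 in Kif11 and at -103 in Kif2c.

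Sterol synthesis was the metabolic list with the largest share called. Of 25 genes of cholesterol synthesis, 17 were lower and 0 higher, every member had a negative value, and the median was -0.88. Acat2, which makes the acetoacetyl-CoA that feeds the pathway, ranged over 10.1 to 15.8 CPM in stable tumours (median 11.4) and 15.4 to 72.7 CPM in non-responders (median 25.3) and 43.0 to 53.8 CPM in controls (median 50). For Acat2 this gave a difference of -1.42 on the log2 scale (SE 0.29, adjusted p = 0.00411). Mvk, mevalonate kinase, ranged over 11.9 to 15.1 CPM in stable tumours (median 14.4) and 16.7 to 48.4 CPM in non-responders (median 23.0), without overlap. For Mvk this gave a difference of -0.92 on the log2 scale (SE 0.19, adjusted p = 0.00426). Nsdhl, a sterol dehydrogenase, was lower (log2 fold change -1.28, SE 0.31, adjusted p = 0.00894), with a log2 fold change of -0.82 without non-responder 3, and Cyp51, the lanosterol demethylase, was lower too (log2 fold change -1.13, SE 0.28, adjusted p = 0.00973). The count depended on which tumours entered: 6 without non-responder 3, 9 without non-responder 1, 10 without stable 3 and 20 at most. CCAAT, the box bound by NF-Y beside sterol response elements, was present in 17 of the 18 matched promoters (94.4%), against 39.9% of matched tested genes. A sterol element, TCACNCCAC on either strand, was present in 1 of the 18 (5.56%), against 1.27%. Shown in capitals are the CCAAT letters, or the reverse complement ATTGG, in the 120 bases before the start of the first 2 such genes by adjusted p, Mvk (chr5:114444149-114444268, plus strand) and Nsdhl (chrX:72918401-72918520, plus strand).
Mvk: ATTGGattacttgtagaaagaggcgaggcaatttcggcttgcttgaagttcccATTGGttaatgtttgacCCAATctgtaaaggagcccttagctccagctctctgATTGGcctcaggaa
Nsdhl: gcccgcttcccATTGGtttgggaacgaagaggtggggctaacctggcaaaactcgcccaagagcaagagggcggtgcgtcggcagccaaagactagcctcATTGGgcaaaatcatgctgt
The stretch before Mvk holds 4 copies and that before Nsdhl 2.

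Of 29 genes of fatty acid metabolism, 8 were lower and 2 higher (median -0.19), with 5 lower without non-responder 3. Ppargc1a, the coactivator of mitochondrial genes that is a Mitf target in pigmented melanoma, had the lowest value of the list, at 0.682 to 1.71 CPM in stable tumours (median 1.06) and 1.57 to 50.4 CPM in non-responders (median 15.6) and 41.6 to 71.8 CPM in controls (median 47.2). For Ppargc1a this gave a difference of -4.12 on the log2 scale (SE 0.67, adjusted p = 0.00151). The synthetic enzymes Fasn (log2 fold change -0.79, SE 0.17, adjusted p = 0.00568) and Elovl6 (log2 fold change -1.88, SE 0.46, adjusted p = 0.00987) were lower, and Acsl1, an acyl-CoA synthetase, was higher (log2 fold change 1.23, SE 0.29, adjusted p = 0.00779). Of 76 nuclear genes of oxidative phosphorylation, all had negative values (median -0.28). Only 4 were called lower (5.26%, below the 7.86% over all genes tested), among them Ndufa4 (log2 fold change -1.23, SE 0.29, adjusted p = 0.00714), Ndufb2 (-0.63) and Cox5b (-0.65). Leaving out 1 tumour gave 1 (without non-responder 2 or 3 or stable 2 or 3) to 8 (without non-responder 5), with 7 without non-responder 4 and 2 without non-responder 1 or stable 1, 4, 5 or 6, and Ndufa4 alone of the 4 kept its call throughout. Among 15 mitochondrial genes, mt-Rnr1 was higher and mt-Co3, a subunit of cytochrome oxidase, lower. The 1 call in each direction was 6.67% of the list, near the 7.08% higher and 7.86% lower over all genes tested. Levels of mt-Co3 were 117 to 201 CPM in stable tumours (median 138) and 243 to 641 CPM in non-responders (median 329) (log2 fold change -1.34, SE 0.32, adjusted p = 0.00758). The rRNA and this mRNA of the same genome thus differed in sign, but mt-Rnr1 lost its call without stable 5 or any 1 non-responder. Without non-responder 5 or stable 5, 2 mitochondrial genes were lower. The summed share of mitochondrial protein genes was 0.665 ± 0.153% in stable tumours and 0.723 ± 0.159% in non-responders (SD, n = 6 each; exact permutation p = 0.543).

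Of 38 genes of glycolysis and hypoxia, 3 were higher and 1 lower (median -0.01), with 8 higher without non-responder 6. The 3 were 7.89% of the list, near the 7.08% over all genes tested. Pfkfb3 (log2 fold change 1.10, SE 0.23, adjusted p = 0.00419) and Pfkfb4 (log2 fold change 0.79, SE 0.20, adjusted p = 0.0113), which set the level of the glycolytic activator fructose 2,6-bisphosphate, and the glucose transporter Slc2a3 (log2 fold change 1.06, SE 0.29, adjusted p = 0.0159) were higher. Car9, a hypoxia-induced carbonic anhydrase, was lower (-1.74) but lost its call without most single tumours (3 of 6 non-responders and 5 of 6 stable tumours). Of 34 lysosomal genes 10 were higher and 0 lower (median 0.44), with 2 without stable 3, 3 without non-responder 2 and 6 without non-responder 3. Atp6v0d2 (log2 fold change 2.52, SE 0.61, adjusted p = 0.00925) kept its call in every left-out fit, while the saposin precursor Psap, at 3578 to 7849 CPM in stable tumours (median 4234) and 1285 to 4749 CPM in non-responders (median 1715), lost its call without stable 3 (log2 fold change 1.12, SE 0.30, adjusted p = 0.0161). Of 33 genes of ER and integrated stress, 10 were higher and 1 lower (median 0.41), among them the stress sensors Ern1 (log2 fold change 0.56, SE 0.12, adjusted p = 0.00544) and Atf6 (log2 fold change 0.50, SE 0.13, adjusted p = 0.0115), the latter not called without the filter on low counts, and Ppp1r15a, which ends the translational block (log2 fold change 0.99, SE 0.24, adjusted p = 0.00882). That count was 5 without non-responder 2 and 6 without non-responder 1 or 3 or stable 2, 3 or 4. The one lower gene of this list was not called without non-responder 3. Of 82 cytosolic ribosomal protein genes edgeR called 0 (median -0.12), with 4 lower at an unadjusted p under 0.05, 3 lower by DESeq2 and 4 by limma. Rplp0, of the ribosomal stalk, ranged over 882 to 1136 CPM in stable tumours (median 1052) and 1092 to 2480.4 CPM in non-responders (median 1298). For Rplp0 this gave a difference of -0.53 on the log2 scale (SE 0.21, adjusted p = 0.0967).

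Immune lists ranged from 0 of 37 type I interferon genes to 14 of 30 cytokines and NF-kB targets called higher in stable tumours, and several of these counts moved with single tumours. Of 25 genes of the T cell receptor and its coreceptors, 8 were higher and 0 lower, all 25 had positive values, and the median was 0.95. Il7r, the interleukin 7 receptor of resting and memory T cells, ranged over 31.3 to 78.6 CPM in stable tumours (median 43.8) and 2.92 to 28.2 CPM in non-responders (median 10.6) and 1.53 to 4.76 CPM in controls (median 2.3), without overlap. For Il7r this gave a difference of 1.99 on the log2 scale (SE 0.43, adjusted p = 0.00518). Tcf7, a factor of stem-like T cells, was also higher in every stable tumour, at 17.7 to 27 CPM in stable tumours (median 21.7) and 5.37 to 15.9 CPM in non-responders (median 13.3). For Tcf7 this gave a difference of 0.86 on the log2 scale (SE 0.19, adjusted p = 0.00528). Icos, an inducible costimulatory receptor, was higher (log2 fold change 1.25, SE 0.33, adjusted p = 0.0142), with non-responder 6 inside the stable range and no call in a fit of the 12 tumours alone. The list's 8 became 21 without non-responder 6 and 3 to 5 without non-responder 1, 2 or 3 or stable 1, 2 or 3. The 5 T cell markers summed to 88.5 to 125 CPM in stable tumours and 12.2 to 117 CPM in non-responders, and 1 of the 5, Cd2, was called.

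Ctla4, the target of the antibody, stood at 9.87 to 17.1 CPM in stable tumours (median 12.7) and 1.63 to 10.4 CPM in non-responders (median 4.25), against 0.704 to 2.74 CPM in controls (median 0.967). It was called higher (log2 fold change 1.34, SE 0.35, adjusted p = 0.0127) and overlapped only through non-responder 6. Foxp3, the defining factor of regulatory T cells, at 4.96 to 10.5 CPM in stable tumours (median 6.43) and 0.816 to 8.24 CPM in non-responders (median 3.66), was not called. For Foxp3 this gave a difference of 0.79 on the log2 scale (SE 0.37, adjusted p = 0.156). Of 13 regulatory T cell genes 3 were higher, Ctla4 with Il2ra (1.10) and Tnfrsf9 (1.54), and the last 2 lost their calls without most single tumours, Tnfrsf9 having a log2 fold change of 2.66 without non-responder 6. That count was 1 without non-responder 2, 3 or 4 or stable 1, 2, 3 or 6, and 6 without non-responder 6. Of 18 inhibitory checkpoint genes 8 were higher and 0 lower (median 0.86), with 5 without non-responder 1, 2 or 3. Cd274, the ligand PD-L1 (chromosome 19, 29367455 to 29388095, plus strand), ranged over 161 to 382 CPM in stable tumours (median 203) and 31.8 to 192 CPM in non-responders (median 74.4) and 21.6 to 33.5 CPM in controls (median 26.4), with non-responder 6 inside the stable range. For Cd274 this gave a difference of 1.45 on the log2 scale (SE 0.30, adjusted p = 0.00411). Lilrb4a, an inhibitory receptor of myeloid cells (log2 fold change 1.36, SE 0.31, adjusted p = 0.00628), Cd80, a ligand shared by CD28 and CTLA-4 (log2 fold change 1.10, SE 0.28, adjusted p = 0.0121), and Cd200r1, an inhibitory receptor (log2 fold change 1.08, SE 0.29, adjusted p = 0.0164), were higher too.

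Of 25 genes of CD8 and NK cytotoxicity all had positive values, and the median of 1.08 was above that of the T cell list. Only 2 were called higher (8%, near the 7.08% over all genes tested). Ccl5, a chemokine of effector lymphocytes, was higher without overlap, at 112 to 175 CPM in stable tumours (median 150.3) and 6.49 to 102 CPM in non-responders (median 28.8). For Ccl5 this gave a difference of 1.95 on the log2 scale (SE 0.49, adjusted p = 0.0114). Gzmc, a granzyme, was called (log2 fold change 1.97, SE 0.65, adjusted p = 0.043), lost its call without each tumour in turn apart from non-responder 6 and stable 3, and had a log2 fold change of 3.15 without non-responder 6. Without non-responder 6 the count was 20 of 25, and without any other tumour it was 1, except that it stayed at 2 without stable 3. Prf1, perforin, ranged over 13.9 to 22.1 CPM in stable tumours (median 16.4) and 1.12 to 22.7 CPM in non-responders (median 5.01) and was not called (log2 fold change 1.23, SE 0.47, adjusted p = 0.0787). Non-responder 6 exceeded every stable tumour for Prf1. The 6 CD8 and NK markers, Prf1 among them, summed to 85.8 to 161 CPM in stable tumours and 12.3 to 150 CPM in non-responders. None of the 6 was called, and Cd8a (0.49) and Cd8b1 (0.54) had the smallest differences among them. Of 20 B and plasma cell genes 4 were higher (20%, against 7.08% over all genes tested), all 20 had positive values and the median was 1.00. Ighm, the heavy chain of IgM, did not overlap, at 72.8 to 397 CPM in stable tumours (median 175) and 22.8 to 66.7 CPM in non-responders (median 56.4) (log2 fold change 2.02, SE 0.57, adjusted p = 0.02), and lost its call without non-responder 3 or stable 2 or 3. Of 55 immunoglobulin variable segments tested, 15 were higher and 0 lower (median 1.69). The B and plasma count was 2 without non-responder 1 or 2, 1 without stable 2 and 0 without non-responder 3 or stable 3.

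Interferon gamma genes and antiviral genes of type I interferon had medians of opposite sign. Of 35 interferon gamma response genes 11 were higher and 0 lower (median 0.72). Jak1, a kinase of the interferon receptors, did not overlap, at 248 to 335 CPM in stable tumours (median 259) and 171 to 231 CPM in non-responders (median 187) (log2 fold change 0.46, SE 0.12, adjusted p = 0.0157), and was not called without stable 3 or without the filter on low counts. Gbp5, an interferon-induced GTPase, ranged over 93.1 to 149 CPM in stable tumours (median 125) and 16.4 to 93.9 CPM in non-responders (median 59.9) and 4.03 to 15.0 CPM in controls (median 8.57). For Gbp5 this gave a difference of 1.13 on the log2 scale (SE 0.33, adjusted p = 0.0256). Gbp5, Gbp8 (1.26) and Ciita (1.09), the master activator of MHC class II, each lost their call without non-responder 2 or 3 or stable 3, Ciita also without non-responder 1, and all 3 in a fit of the 12 tumours alone. The count of 11 became 27 without non-responder 6, 0 without stable 3, 1 without non-responder 2 or 3, 4 to 5 without non-responder 1 or 5, and 6 without stable 2 or 4. Of 37 type I interferon genes, 1 was lower and 0 higher, with a median of -0.26 and 32.4% positive. At 2.70% of the list, the lower share was below the 7.86% over all genes tested. That 1 was Cmpk2, a mitochondrial kinase induced by interferon, at 20.2 to 26.6 CPM in stable tumours (median 24.7) and 28.1 to 65.7 CPM in non-responders (median 44.2), without overlap. For Cmpk2 this gave a difference of -0.91 on the log2 scale (SE 0.26, adjusted p = 0.0214). Removing non-responder 1, its highest tumour, ended the call, and without non-responder 3 the count was 3.

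The element bound by interferon regulatory factors, searched as a pair of GAAA runs with any 2 bases between them, was present in 12 of the 21 matched promoters of the interferon gamma list (57.1%), against 3.43% of matched tested genes. The matched stretches of Socs1, a feedback inhibitor of Jak kinases (chr16:10785537-10785656, minus strand), and Gbp2, a GTPase (chr3:142620543-142620662, plus strand), are shown with the element, on either strand, in capitals. They are the 2 called members with the lowest adjusted p that hold it within 120 bases of the start.
Socs1: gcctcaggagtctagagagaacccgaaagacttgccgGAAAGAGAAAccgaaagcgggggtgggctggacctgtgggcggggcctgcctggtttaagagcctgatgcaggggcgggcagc
Gbp2: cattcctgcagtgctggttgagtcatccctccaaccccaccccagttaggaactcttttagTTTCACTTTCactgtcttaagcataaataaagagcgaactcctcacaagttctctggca
Each holds 1 match in the stretch shown.

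Antigen presentation genes were higher in a number that again rested on few tumours. Of 17 MHC class II genes 7 were higher and 0 lower (median 1.05), with 14 without non-responder 6, 1 without non-responder 1, 2 or 3 or stable 3, 4 without non-responder 5 or stable 2 and 3 without stable 4. March1, a ubiquitin ligase that removes class II molecules from the surface, kept its call in all of these, at 58.0 to 93.8 CPM in stable tumours (median 68.6) and 12.4 to 68.5 CPM in non-responders (median 27.3). For March1 this gave a difference of 1.15 on the log2 scale (SE 0.31, adjusted p = 0.0145). The class II chain H2-Ab1 ranged over 1729 to 3201 CPM in stable tumours (median 2104) and 263 to 2148 CPM in non-responders (median 667) and 98.8 to 315 CPM in controls (median 123) (log2 fold change 1.39, SE 0.42, adjusted p = 0.028), and lost its call without any of non-responders 1 to 3 or stable 3 or 4. Ctss, the protease that trims the invariant chain, behaved likewise (1.76) and was not called without non-responder 1, 2 or 3 or stable 3. Of 23 MHC class I genes 3 were higher (median 0.62, all 23 positive), or 13.0%, against 7.08% over all genes tested. The count was 18 without non-responder 6 and 1 without non-responder 2 or 3 or stable 3. Tapbp, tapasin, which loads peptides, was higher in every left-out fit (log2 fold change 0.99, SE 0.25, adjusted p = 0.0124) and not in a fit of the 12 tumours alone.

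Of 27 macrophage and monocyte genes 12 were higher and 0 lower, with all 27 positive and a median of 0.98. Fcgr2b, the inhibitory Fc receptor (chromosome 1, 170958617 to 170976547, minus strand), ranged over 222 to 262 CPM in stable tumours (median 246) and 39.1 to 204 CPM in non-responders (median 94.7) and 31.0 to 53.7 CPM in controls (median 39.6), without overlap. For Fcgr2b this gave a difference of 1.27 on the log2 scale (SE 0.26, adjusted p = 0.00413). Sirpa, the receptor for CD47 (log2 fold change 0.98, SE 0.22, adjusted p = 0.00612), and Itgam, the integrin CD11b (log2 fold change 1.28, SE 0.33, adjusted p = 0.0118), were higher. The count was 19 without non-responder 6 and 4 to 7 without non-responder 1, 2, 3 or 5 or stable 2, 3 or 4. The 6 macrophage markers summed to 1649 to 2598 CPM in stable tumours, 543 to 1870 CPM in non-responders and 405 to 677 CPM in controls, and 2 of the 6 were called, Csf1r (1.00) and Cd68 (1.38), both lost without non-responder 1 or 2 or stable 3. Of 20 lipid-associated macrophage genes 6 were higher and 1 lower (median 0.60). The cholesterol exporters Abca1, at 449.8 to 761 CPM in stable tumours (median 558) and 186 to 421 CPM in non-responders (median 279) (log2 fold change 0.96, SE 0.21, adjusted p = 0.00509), and Abcg1 (log2 fold change 1.35, SE 0.30, adjusted p = 0.00629) were higher, while the lower member was Gpnmb, which melanosomes also carry and whose call was lost without 8 of the tumours in turn. Only 2 of that list were higher without non-responder 1, 2 or 3 or stable 3. Of 22 genes of alternatively activated macrophages 1 was called (Tgm2, 0.97, lost without most single tumours), and 4 were without non-responder 6. The 1 call is 4.55% of the list, below the 7.08% higher over all genes tested.

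Of 30 cytokines and targets of NF-kB, 14 were higher and 0 lower (median 0.81), 12 to 14 without any single tumour other than non-responder 6, and 22 without that tumour. Tnfaip3, the feedback inhibitor A20, did not overlap, at 71.2 to 91.5 CPM in stable tumours (median 74.3) and 19.9 to 68.9 CPM in non-responders (median 41.2). For Tnfaip3 this gave a difference of 0.96 on the log2 scale (SE 0.20, adjusted p = 0.00405). Il1b, interleukin 1 beta, ranged over 29.7 to 65.1 CPM in stable tumours (median 39.1) and 2.54 to 33.7 CPM in non-responders (median 5.21) and 0.743 to 1.19 CPM in controls (median 1.1) (log2 fold change 2.14, SE 0.49, adjusted p = 0.00645), with non-responder 6 far above the other non-responders and a log2 fold change of 3.23 without it. Tnfsf13b, the B cell survival factor BAFF, did not overlap (log2 fold change 1.11, SE 0.26, adjusted p = 0.00746). Of 32 chemokine genes 7 were higher and 0 lower (median 0.68), with 12 without non-responder 6. Cx3cl1 (log2 fold change 0.84, SE 0.19, adjusted p = 0.00653) and the stromal chemokine Cxcl12 (log2 fold change 1.04, SE 0.27, adjusted p = 0.0137) did not overlap, and Cxcl16 was higher with overlap (log2 fold change 1.57, SE 0.38, adjusted p = 0.00844). Of 24 genes of inflammasomes and cell death 9 were higher and 0 lower (median 0.50), among them the survival factor Mcl1 (log2 fold change 0.74, SE 0.17, adjusted p = 0.00719) and the necroptosis kinase Ripk3 (log2 fold change 0.82, SE 0.21, adjusted p = 0.0113). That count was 5 without non-responder 1, 2 or 3 or stable 3 or 4.

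Enzymes that suppress or modulate T cells through small molecules were higher in 8 of 21 and lower in 1 (median 0.97). Entpd1, CD39, which degrades ATP, ranged over 90.8 to 184 CPM in stable tumours (median 114) and 21.7 to 95.8 CPM in non-responders (median 47.2). For Entpd1 this gave a difference of 1.23 on the log2 scale (SE 0.30, adjusted p = 0.00853). The prostaglandin E2 enzymes Ptges (log2 fold change 1.28, SE 0.32, adjusted p = 0.01) and Ptgs2 (log2 fold change 1.74, SE 0.44, adjusted p = 0.0116) were higher, while Ptgds, the prostaglandin D synthase, was lower, at 0.111 to 3.95 CPM in stable tumours (median 1.49) and 2.04 to 201 CPM in non-responders (median 50.4) and 211 to 392 CPM in controls (median 356) (log2 fold change -5.49, SE 0.99, adjusted p = 0.00266). The count of 8 was 13 without non-responder 6, 4 without non-responder 2, and 5 without non-responder 3 or 4 or stable 2 or 3. Of 22 complement genes 5 were higher (median 0.84), with C5ar1 the example without overlap (log2 fold change 0.80, SE 0.22, adjusted p = 0.0176), a call lost without non-responder 2 or 3. Between 1 and 3 complement genes were called without non-responder 1, 2, 3 or 5 or stable 2, 3 or 4, 8 without non-responder 4 and 13 without non-responder 6. Of 21 dendritic cell genes 5 were higher (median 0.66), led by Relb (log2 fold change 0.71, SE 0.19, adjusted p = 0.0167), which limma on log2 RPKM and a fit of the 12 tumours did not call, with 8 without non-responder 6 and 1 to 3 without any of the other non-responders or stable 1 to 4. Of 17 neutrophil genes 2 were higher (median 1.19), or 11.8%, against 7.08% over all genes tested. The count was 11 without non-responder 6, and 1 without any other tumour except stable 1. The neutrophil markers S100a8 (1.65), S100a9 (0.93), Cxcr2 (1.57) and Retnlg (1.86) were not called. Csf3r, the receptor of granulocyte growth factor, kept its call in each left-out fit (log2 fold change 1.26, SE 0.31, adjusted p = 0.0102).

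The list of mast cell and eosinophil genes held calls in both directions. Of 18 genes 7 were lower and 3 higher. The lower genes included proteases of mast cells: Cma1, a chymase, did not overlap, at 4.59 to 12.4 CPM in stable tumours (median 6.9) and 13.5 to 36.3 CPM in non-responders (median 24.8) (log2 fold change -1.70, SE 0.38, adjusted p = 0.00612), and Mcpt4 (-1.38) and Cpa3 (-1.47) are proteases of the same granules. The mast cell marker Tpsb2 was not called (-0.94, adjusted p = 0.0763). The 3 higher were Ccl11, which draws eosinophils (1.77), and the eosinophil genes Prg2 (1.90) and Siglecf (1.52). Mast cell markers summed to 21.7 to 71.0 CPM in stable tumours and 64.4 to 137 CPM in non-responders, and eosinophil markers to 2.97 to 18.8 CPM and 1.33 to 10.3 CPM, with Epx at 0 in every non-responder and control and at most 0.174 CPM in stable tumours, where its median was 0. The 7 were 2 to 4 without non-responder 1, 2 or 3 or stable 1, 2, 3 or 4, and the 3 were 0 without non-responder 1, 2 or 3 or stable 3 or 4, 1 without non-responder 4 or 5 or stable 2, and 5 without non-responder 6. Cma1 kept its call throughout.

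**Figure D4:**
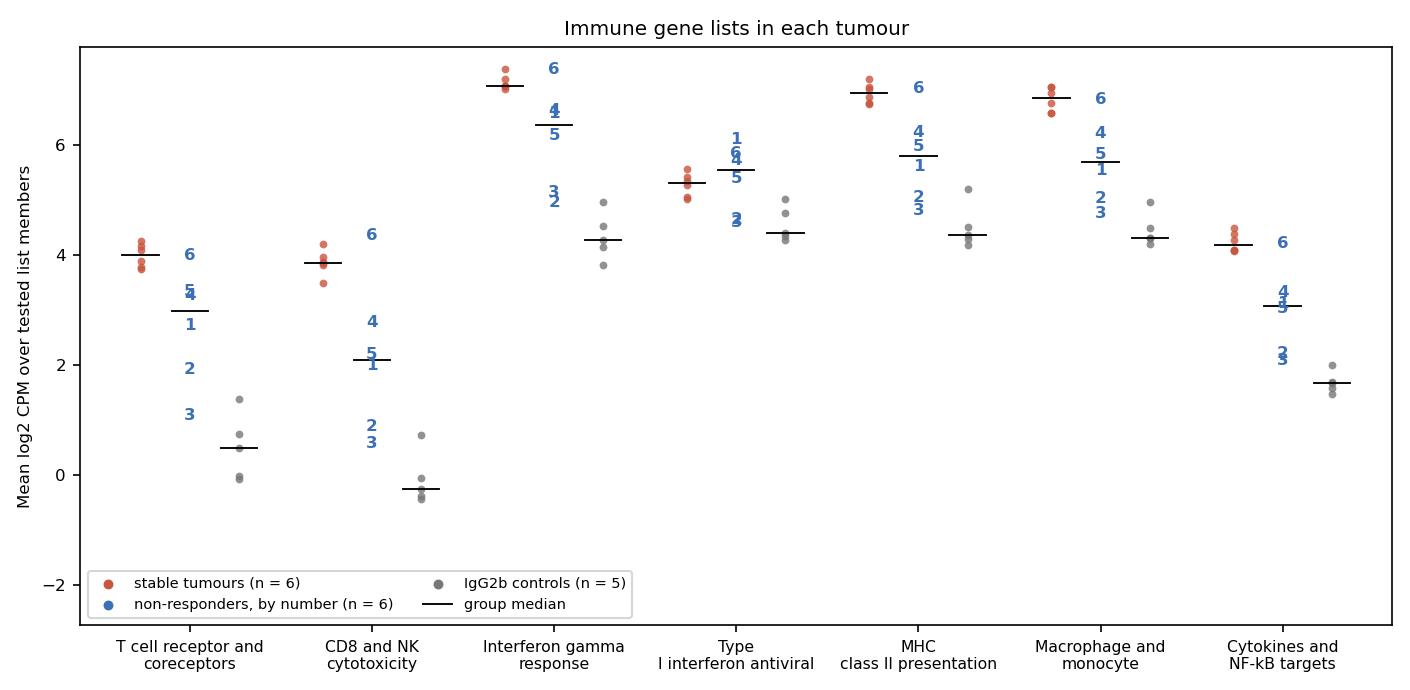
Mean log2 CPM over the tested members of 7 immune gene lists in each tumour, with stable tumours as dots, non-responders as their numbers, IgG2b controls as grey dots and the group median as a bar. Non-responder 6 lies within or above the stable tumours in all 7 lists, non-responders 2 and 3 lie lowest, and type I interferon genes do not separate the groups.

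Most called endothelial genes were lower. Of 33, 14 were lower and 1 higher (median -0.61), and leaving out any tumour left 10 to 14 lower. Robo4, a receptor that stabilises vessels, ranged over 3.11 to 5.36 CPM in stable tumours (median 3.63) and 7.8 to 15.8 CPM in non-responders (median 12.1) and 8.11 to 14.2 CPM in controls (median 8.67), without overlap. For Robo4 this gave a difference of -1.62 on the log2 scale (SE 0.23, adjusted p = 0.000913). Esam, a junction protein, did not overlap either, at 3.48 to 6.59 CPM in stable tumours (median 4.52) and 7.72 to 16.5 CPM in non-responders (median 11.8) (log2 fold change -1.32, SE 0.19, adjusted p = 0.000913), nor did the sialomucin Emcn (log2 fold change -1.43, SE 0.25, adjusted p = 0.00207). Angpt2, which loosens vessels and is made by endothelial tip cells, was lower (log2 fold change -1.24, SE 0.23, adjusted p = 0.0028), as was Kdr, the main receptor of VEGF (log2 fold change -1.35, SE 0.29, adjusted p = 0.00527). Pecam1, a general endothelial marker, at 31.5 to 50.9 CPM in stable tumours (median 46.9) and 33.7 to 72.0 CPM in non-responders (median 48.9), was not called (log2 fold change -0.25, SE 0.19, adjusted p = 0.405), and Flt1, the decoy VEGF receptor also made by macrophages, was higher (log2 fold change 1.00, SE 0.24, adjusted p = 0.00791), joined by 2 others without non-responder 6. The 5 endothelial markers summed to 82.0 to 148 CPM in stable tumours, 142 to 284 CPM in non-responders and 129 to 184 CPM in controls. Among 27 fibroblast and pericyte genes the pericyte genes Rgs5, at 19.5 to 42.1 CPM in stable tumours (median 26.4) and 40.0 to 118 CPM in non-responders (median 91.6) (log2 fold change -1.56, SE 0.25, adjusted p = 0.00117), and Abcc9 (log2 fold change -1.0, SE 0.20, adjusted p = 0.00368) were lower and the gelatinase Mmp2 higher (0.60, lost without 7 of the tumours in turn), with 3 higher without non-responder 4 and 2 without stable 6. The 2 lower genes were 7.41% of that list, near the 7.86% over all genes tested. Of the other pericyte markers, Pdgfrb (0.29, adjusted p = 0.300) and Kcnj8 (-0.67, adjusted p = 0.0900) were not called. The pericyte markers overlapped in sum, at 179 to 247 CPM in stable tumours (median 212) and 186 to 354 CPM in non-responders (median 221). The 5 fibroblast markers overlapped in sum, at 2529 to 5247 CPM and 1573 to 4957 CPM, and none was called.

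Of 31 matrix proteases and inhibitors 11 were higher and 3 lower (median 0.57), with 6 or 7 higher without non-responder 1, 2 or 3 or stable 2, 3 or 4. Plau, urokinase, ranged over 76.3 to 231 CPM in stable tumours (median 134) and 35.5 to 86.8 CPM in non-responders (median 48.7) (log2 fold change 1.41, SE 0.29, adjusted p = 0.00405), and Adam8, a metalloprotease of myeloid cells, over 63.4 to 181 CPM in stable tumours (median 120.4) and 16.2 to 107 CPM in non-responders (median 26.4) (log2 fold change 1.75, SE 0.41, adjusted p = 0.00769), each with overlap. Mmp11, a stromal protease, was higher (log2 fold change 1.17, SE 0.22, adjusted p = 0.0028), while Adam12, a metalloprotease of mesenchyme and tumour cells, was lower in every stable tumour, at 41.9 to 106 CPM in stable tumours (median 73.4) and 125 to 540.1 CPM in non-responders (median 260.2) and 319 to 452 CPM in controls (median 419.7) (log2 fold change -1.94, SE 0.30, adjusted p = 0.00113). Of 40 collagens and matrix genes 3 were higher and 2 lower (median 0.12). These shares, 7.5% and 5%, were near or below the 7.08% and 7.86% over all genes tested. Thbs1, thrombospondin 1, which inhibits vessel growth and activates TGF-beta, did not overlap, at 2266 to 4372 CPM in stable tumours (median 3343) and 377 to 1322 CPM in non-responders (median 849.9) and 335 to 388 CPM in controls (median 379.6). For Thbs1 this gave a difference of 1.95 on the log2 scale (SE 0.39, adjusted p = 0.00373). Eln, elastin, was lower (log2 fold change -1.41, SE 0.31, adjusted p = 0.00526), with a log2 fold change of -0.84 without non-responder 5 and no call by limma on log2 RPKM. The count of higher matrix genes was 1 without non-responder 1, 2 or 3 or stable 3, 4 or 5, and 5 without non-responder 5. That of lower ones was 1 without non-responder 4 or 5 or stable 2, 3 or 4.

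Genes of tissue around the tumour gave few calls. Of 25 keratinocyte and hair genes, 26 skeletal muscle genes and 15 adipocyte genes edgeR, DESeq2 and limma each called 0, and at an unadjusted p under 0.05 2 keratinocyte genes were higher, 0 muscle genes passed and 1 adipocyte gene was higher and 1 lower. The adipocyte count was 1 higher without non-responder 6. The muscle titin gene Ttn ranged over 299 to 962 CPM in stable tumours (median 710.1) and 116 to 1873 CPM in non-responders (median 857) (log2 fold change -0.41, SE 0.59, adjusted p = 0.692) and the hair keratin Krt71 over 1.37 to 754 CPM in stable tumours (median 173) and 0 to 194 CPM in non-responders (median 30.8) (log2 fold change 2.49, SE 1.98, adjusted p = 0.433). Keratinocyte markers summed to 8.40 to 83.8 CPM in stable tumours and 2.88 to 286 CPM in non-responders, muscle markers to 253 to 728 CPM and 85.1 to 1057 CPM, and adipocyte markers to 4.07 to 40.1 CPM and 2.49 to 19.8 CPM. Of 17 Schwann cell and myelin genes, Pou3f1 (-1.75) and Fabp7 (-1.25) were lower and Mbp higher (0.82). Each lost its call without at least 1 tumour, Pou3f1 without non-responder 3. The shares were 11.8% lower and 5.88% higher, against 7.86% and 7.08% over all genes tested. Of 7 erythroid genes 1 was lower (14.3%, against 7.86% over all genes tested). It was Epor, the erythropoietin receptor (-1.44), whose call was lost without most single tumours. The haemoglobin gene Hbb-bs, at 11.2 to 18.8 CPM in stable tumours (median 13.3) and 15.6 to 55.9 CPM in non-responders (median 21.9), was not called. For Hbb-bs this gave a difference of -1.05 on the log2 scale (SE 0.43, adjusted p = 0.0975). Called genes were spread over the genome: by autosome, the share lower ranged from 4.04% on chromosome 16 to 10.8% on chromosome 6, and the share higher from 4.82% on chromosome 18 to 9.14% on chromosome 4.

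**Figure D5:**
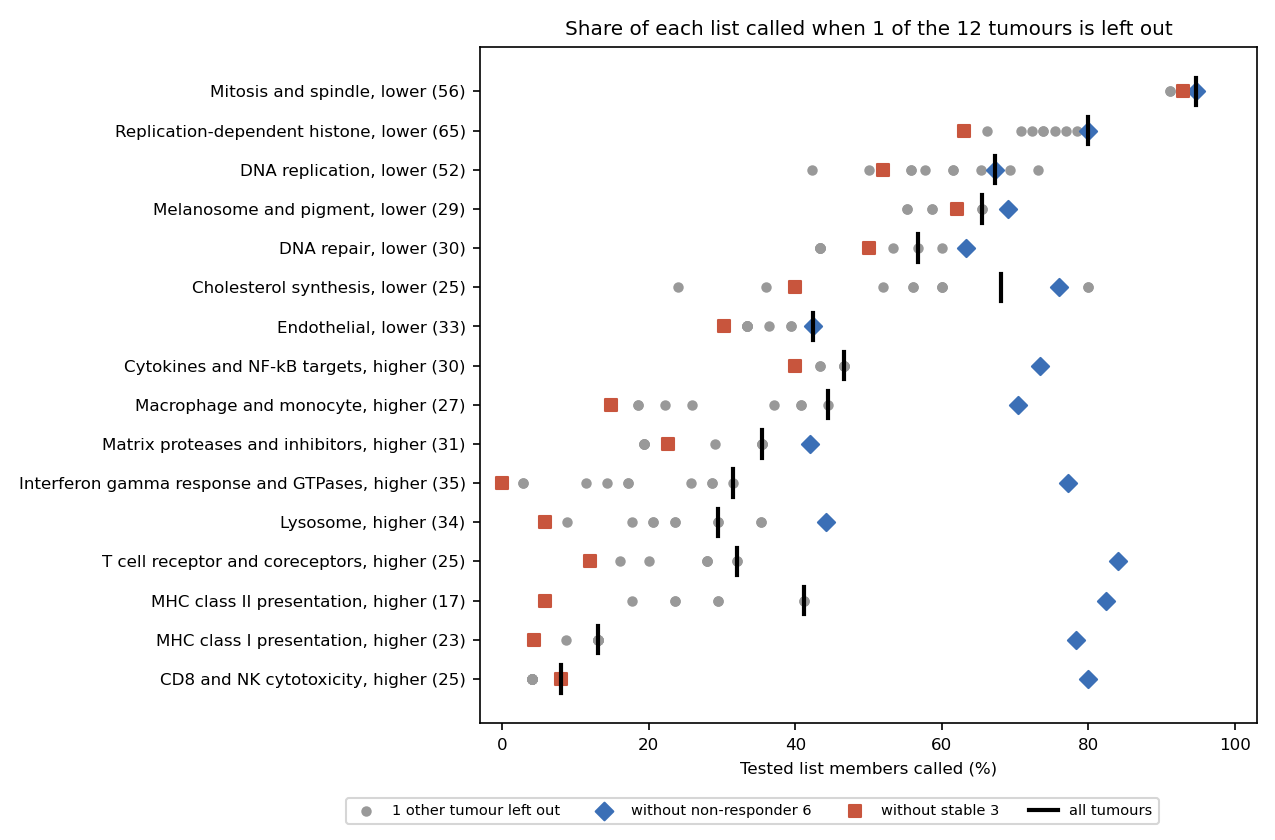
Share of tested list members called, in percent, for 16 lists and the direction named, with all tumours (black bar) and with each of the 12 tumours left out (points, with non-responder 6 as a blue diamond and stable 3 as a red square). Mitosis stays between 51 and 53 of 56, while CD8 and NK cytotoxicity goes from 2 of 25 to 20 of 25 without non-responder 6.

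The 6 non-responders were not alike. As the mean log2 CPM over the pigment list, non-responders 1, 2 and 3 stood at 5.85, 6.26 and 6.57, non-responders 4, 5 and 6 at 4.39, 4.11 and 3.94, the stable tumours from 2.43 (stable 3) to 3.78 (stable 2), and the controls from 6.40 to 7.02. On the macrophage list non-responders 1, 2 and 3 stood at 5.54, 5.03 and 4.76, non-responders 4, 5 and 6 at 6.22, 5.83 and 6.83, and the stable tumours from 6.58 to 7.06. Non-responder 6 reached 4.37 on the cytotoxicity list, above all stable tumours (3.50 to 4.19), and 4.22 on the NF-kB list, inside their range of 4.07 to 4.50. On the mitosis list it stood at 4.61, just above the highest stable tumour at 4.59, and its pigment level was also above all stable tumours. Stable 3 had the lowest pigment, mitosis (3.46) and histone (3.41) levels of the 12, and the highest interferon gamma level (7.39). These tumours were not grouped or tested by their levels.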

How the data were processed

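RNA-seq was made from whole tumours. The authors deposited expected counts per gene. The submitters' processing notes name RSEM 1.2.22, STAR 2.5.1, bcl2fastq 2.17, Trimmomatic and mm10, with roles not stated. Of these estimated counts 5.64% were not whole and were rounded. The tests had been planned for whole-number counts. All 55450 gene identifiers matched GENCODE M21 (GRCm38), the source of the coordinates. The authors also deposited RPKM values for 19522 gene symbols, of which 19518 were unique and used. Their denominator is not known here. The labels call the RNA polyA while the extract protocol names a total RNA kit.

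Genes passing filterByExpr (18031) were fitted in R 4.3.3 with edgeR 4.0.16 (TMM scaling, 4 group means over 25 tumours, robust quasi-likelihood F test) and p-values adjusted by the Benjamini-Hochberg method. A prior count of 2 was used for log2 CPM, and single shares were compared with two-sided exact permutation tests. P-values measure the spread between tumours of 1 cell line. Alternatives were DESeq2 1.42.0, RLE scaling, other filters, the 12 tumours alone, a test against a 2-fold change, the mitochondrial rRNA share as a covariate, limma 3.58.1 on log2(RPKM + 1) and log2(RPKM + 0.1), and each tumour left out. In simulated data with 200 of 18031 genes changed, the fit called 57% of the 2-fold and 90% of the 4-fold changes, and 0.676% of calls were false. Apart from those changes a simulated gene had the same mean and spread in every group, and the genes of lowest level were never changed. In the tumours 14.9% of genes were called, and the groups differed in spread. The SD of the T cell list was 0.209 in stable tumours and 1.06 in non-responders. The simulated rates therefore need not hold for this comparison. No 2 stable and no 2 non-responder libraries agreed within sampling noise (lowest chi-square per gene 17.1, over 16404 genes).

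Named genes were the 8 highest and 8 lowest called genes with a mean of at least 5 CPM (no predicted genes, receptor segments, ribosomal protein genes or pseudogenes), up to 4 called members per list of lowest adjusted p and at least 1 CPM (the 2 most abundant where none was called), Ctla4, Foxp3 and cell type markers. Fmo2, Slc7a11, Hgf, E2f2, Ccl11, Flt1, Epor and genes named without a value were added after their values were seen. A few genes that this rule names are not reported here. Members and lists were chosen with earlier results of these data known. Promoters came from RefSeq (GRCm38.p6).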

Additional observations from a re-analysis of the deposited data

Results flagged for a closer look

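Among 466 sets of 6 tumours, 19 held a tumour far from the other 5. Chance gives 1 in 20 only for independent sets that were not picked by their values. Most of these sets were genes named for a low adjusted p, so the 19 cannot be weighed against that rate. The sets share tumours and genes and are not independent. In 12 of the 19 the tumour was stable 3. Stable 5 had a mitochondrial rRNA share of 7.28% (the other stable tumours 1.31% to 2.83%), and stable 3 a share of mitochondrial protein genes of 0.373% (0.64% to 0.789%). On the log2 CPM scale stable 3 lay below the other stable tumours for the melanosome genes Pmel (1.04) and Oca2 (-1.63), the mitotic activator Cdc20 (2.74) and the Wnt list gene Lgr5 (-2.24). The same held for the granzyme Gzmc (4.91), the respiratory subunit Ndufa4 (4.92) and the factor Pou3f1 (-0.49). Stable 3 lay above the other stable tumours for the kinase Jak1 (8.39), the peptide transporter Tap2 (7.95), the phosphatase Inpp5j (3.96) and the U1 copy Rnu1a1 (2.56). Stable 5 lay above the others for the hypoxia gene Car9 (3.85) and the collagen Col18a1 (7.77). Non-responder 6 lay above the other non-responders for Il1b (5.08) and Acsl1 (7.59), non-responder 3 for the kinase Plk2 (7.82) and non-responder 5 for the stress sensor Ern1 (5.40).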

How the results depend on the processing

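No paired analysis was possible because the labels carry no replicate numbers that groups share. The 2693 calls became 24 against a 2-fold change (0 higher and 24 lower) and 1 with the mitochondrial rRNA share as a covariate (1 higher and 0 lower). Leaving out each tumour gave 1470 to 3804 calls, 584 to 1991 higher and 861 to 1813 lower. Without the low-count filter 688 were higher and 1218 lower, and limma gave 1054 and 1667 with a pseudocount of 1 and 1024 and 1684 with 0.1, so lower calls took a larger share in these fits. The cause was not tested. DESeq2 gave 1689 higher and 1831 lower and shared 2684 of the called genes. A fit of the 12 tumours alone, without responders or controls, gave 2015 calls, 903 higher and 1112 lower. The difference in protein-coding share, 0.107 percentage points, ran from -0.53 to 0.587 when single tumours were left out. Of the 178 named genes, the call was lost in 156 against a 2-fold change, in 165 with the covariate, in 32 with the 12 tumours alone, in 28 without the filter, in 15 and 18 by limma, and in 1 to 39 when a tumour was left out. No named gene that had a p lost its call under RLE scaling, the stricter filter, protein-coding genes only or DESeq2. The sign changed for mt-Rnr1 with the covariate (-0.70), of which its own counts are part, for Car3, of muscle and fat (-0.42 to 0.0083 over left-out tumours), and for Cfd, of adipocytes (-0.24 to 0.66), the last 2 not called with all tumours.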
